A study of Bos taurus with 6 samples.

Results

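The enzymes that write, read or erase marks on DNA and histones were followed in bovine embryos that had formed a blastocyst by day 8 of culture and in embryos that had not. The list was chosen by function, with earlier results of these data known. It held 50 gene symbols of DNA methylation, histone methylation, histone acetylation and their removal. Of these, 33 were named by at least 1 probe set of the Affymetrix Bovine Genome Array, through 78 probe sets of 24036 in the deposited table, and 70 of the 78 varied between arrays, out of 18937 tested. A probe set is a set of short probes to 1 transcript, combined into 1 value. The array annotation used here named no probe set for the other 17: the 5-methylcytosine oxidases TET1, TET2 and TET3, the methyltransferases SUV39H2, KMT2A, KMT5A, SETD2, DOT1L and CARM1, the Polycomb subunit SUZ12, the demethylases KDM4A, KDM4C and KDM5B, the acetyltransferases KAT2A and EP300, and the HP1 proteins CBX1 and CBX5.

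All embryos came from in vitro fertilization, were pooled from several bulls and cows, and had compacted as morulae before their final grading. The groups were told apart by shape alone: a pool of blastocysts held embryos with a fluid-filled cavity (blastocoele) and an inner cell mass, and a pool of degenerative embryos held those without either on day 8. Each group was measured in 3 pools, labelled A, B and C, with 20 embryos and 1 array per pool. RNA was amplified linearly before hybridization, and nothing in the labels ties a letter to a shared day of culture. A pool averages over all its embryos and cell types, so fewer cells of a type and less RNA per cell cannot be told apart.

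DNA methylation is laid down by de novo methyltransferases and copied after replication by a maintenance enzyme, which is guided to newly made DNA. Histone tails are methylated on lysines and arginines or acetylated on lysines. Methylation of lysine 9 or lysine 27 of histone H3 accompanies silent chromatin, acetylation accompanies active chromatin, and demethylases and deacetylases take these groups off again. In the cleaving mammalian embryo these marks are erased and rebuilt, and the inner cell mass and the trophectoderm differ in them.

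Values were log2 expression from GCRMA, which corrects the background of probes from their sequence and normalizes arrays by quantiles. The lowest value on every array was 2.12, and between 27.4% and 28.6% of probe sets lay within 0.01 of it, where differences are compressed. The median of the tested probe sets was 6.35 to 6.48 per array. Probe sets at the 3' end of the control gene eIF-4E exceeded those at its 5' end by 6.60 to 8.59 in blastocysts and by 9.13 to 9.87 in degenerative embryos, while for GAPDH the gap was 1.83 to 2.89 and 2.48 to 2.52. The part of RNA length in the results was not tested. Degenerative pool A stood apart most: its mean correlation with the other pools of its group was 0.937, the lowest of the 6, and it was the highest pool for 30.0% of the tested probe sets. All differences are the degenerative mean minus the blastocyst mean on the log2 scale.

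No member differed between the groups at the threshold of the study's methods. Significance analysis of microarrays (SAM) at a false discovery rate of 15% called 67 probe sets of the array, or 0.354%, and 0 of the 70 member probe sets. With limma, a moderated test, 4 probe sets of the array (0.0211%) reached an adjusted p of 0.15 or less, and 0 of the members did. The smallest limma adjusted p of a member was 0.373, for SUV39H1, followed by 0.479 for DNMT3A. Among the 33 genes, 28 had a 95% interval of the difference that held 0. The other 5 were UHRF1, SUV39H1 and EZH2, which measured higher in degenerative embryos, and DNMT3A and CBX3, which measured lower.

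At an unadjusted limma p under 0.05, 4 member probe sets were higher (UHRF1, SUV39H1, EZH2 and 1 probe set of EED), beside 3.34% of all tested. Likewise 5 were lower (DNMT3A, CBX3 and 3 probe sets of EED), beside 5.27% of all tested. SAM at the laxer rate of 25%, which the methods used to choose genes for ontology terms, called 1 member probe set as higher (SUV39H1) beside 0.359% of the array, and 5 as lower (DNMT3A, CBX3 and 3 of EED) beside 4.30%. These 6 calls became 3 when the letters were used to pair the pools (DNMT3A, 1 probe set of EED and a dimmer probe set of SIRT1), and the share of the array called went from 4.66% to 3.47%. Leaving out any blastocyst pool or degenerative pool B gave 0 calls at 25% over the whole array, members included, while 9 member probe sets (12.9%, beside 9.98% of the array) were called when degenerative pool A was left out and 3 (4.29%, beside 6.82%) when pool C was.

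With the probe set of highest mean standing for each gene, 22 of 33 members had a difference above 0 and 11 below. The median difference over the members was 0.27, beside 0.02 over the 8189 genes tested. Of those genes, 54.5% lay above 0, against 66.7% of the members. For 7 member genes every degenerative pool was above every blastocyst pool (DNMT1, UHRF1, SUV39H1, SETDB1, EZH2, HDAC8 and KAT2B), or 21.2% against 8.99% of all genes. In the lower direction this held for DNMT3A and CBX3, or 6.06% against 9.16%. Counted by probe set, 9 of 70 were higher without overlap and 5 lower, where 6.48% and 8.93% of the array were. A difference of at least 1 was reached upward by 5 member probe sets, beside 5.07% of the array, and downward by 2, beside 5.84%. Both group means lay under 5 for DNMT3B, EHMT2, EZH1, KDM2B and HDAC2, in the dim part of the scale.

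**Figure D1:**
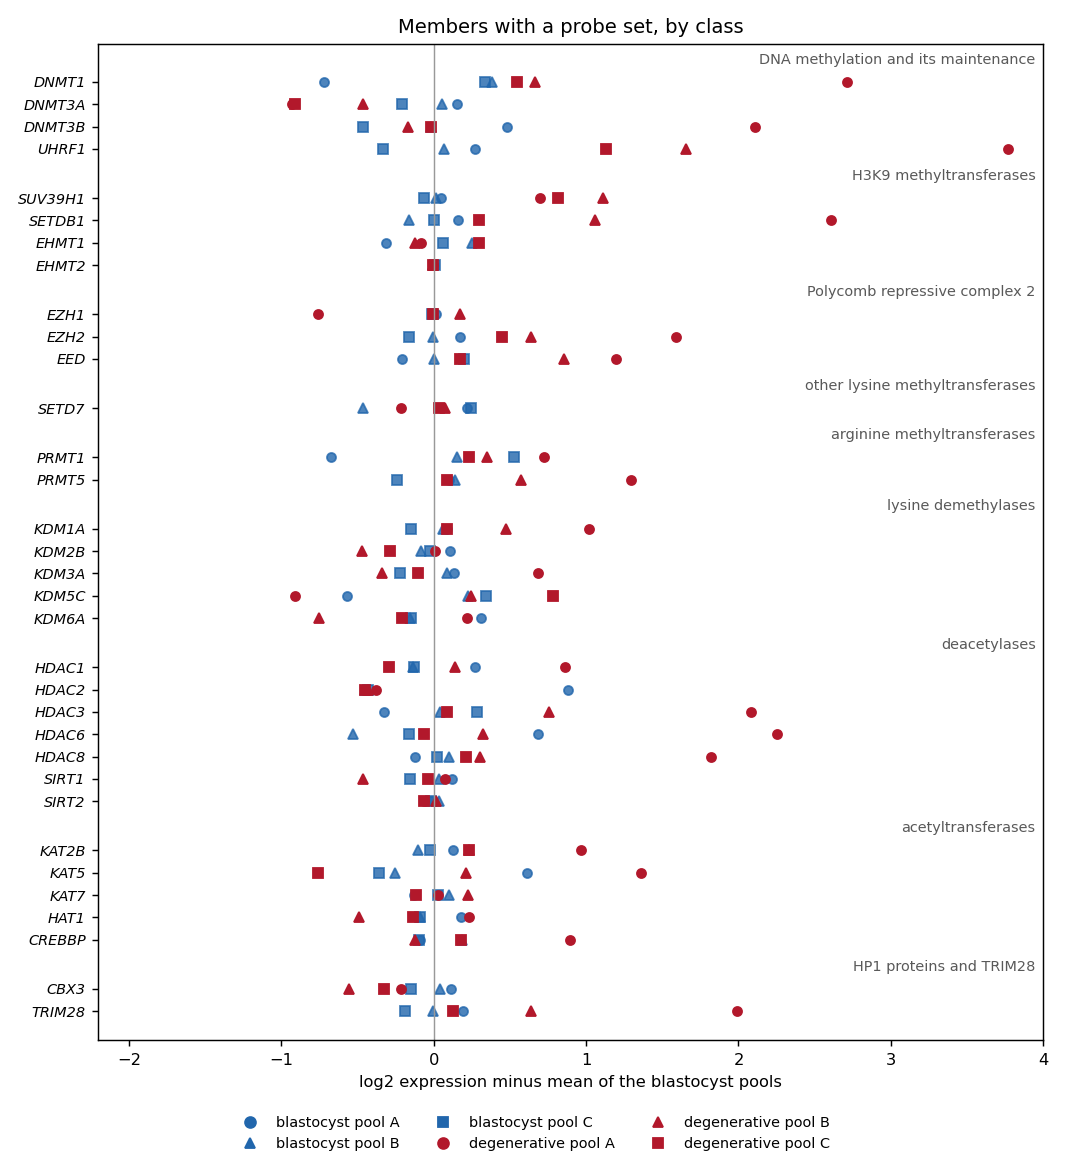
Log2 expression of the 33 members in each of the 6 pools, minus the mean of the 3 blastocyst pools of that gene, with genes grouped by class on the vertical axis. Blue symbols are blastocyst pools, red symbols degenerative pools, and the shape gives the letter. Degenerative pool A (red circles) lies to the right of the other pools in 19 of the 33 genes, UHRF1 furthest, and only DNMT3A and CBX3 have all red symbols left of all blue ones.

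DNA methylation and its maintenance were represented by 4 genes. DNMT1, the maintenance methyltransferase, measured 5.77, 6.87 and 6.83 in blastocyst pools A, B and C and 9.20, 7.15 and 7.03 in degenerative pools A, B and C. The groups did not overlap, but degenerative pools B and C lay close above blastocyst pools B and C. Its difference was 1.31 (SE 0.73, limma adjusted p = 0.665), 0.60 without degenerative pool A and 0.24 without both A pools. UHRF1, which binds hemimethylated DNA and brings DNMT1 to it, measured 6.70, 6.49 and 6.10 in blastocysts and 10.20, 8.08 and 7.56 in degenerative embryos. Every degenerative pool was above every blastocyst pool, with pool A furthest. This was the largest difference among the 33 genes, 2.18 or 4.55-fold (SE 0.76, limma adjusted p = 0.563). It remained 1.39 without degenerative pool A, and a dimmer probe set of the gene differed by 0.46, with overlap.

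DNMT3A, a de novo methyltransferase, ran the other way. Its values were 12.53, 12.43 and 12.17 in blastocyst pools and 11.45, 11.91 and 11.47 in degenerative pools, so each degenerative pool was below each blastocyst pool and pool A did not stand apart. The difference was -0.77 (SE 0.18, limma adjusted p = 0.479), a level 1.70-fold lower. Its second varying probe set differed by -0.55 and overlapped. DNMT3B, the other de novo enzyme, was near the floor, with means of 3.01 and 3.65. Its difference of 0.64 turned to -0.09 without degenerative pool A.

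Of the enzymes that methylate lysine 9 of histone H3, 4 were measured. SUV39H1, which trimethylates this lysine at pericentric heterochromatin, had values of 6.69, 6.66 and 6.58 in blastocysts and 7.34, 7.75 and 7.46 in degenerative embryos. The blastocyst pools lay close together, far below all degenerative pools, and here degenerative pool A was the lowest of its group. The difference was 0.87 (SE 0.12, limma adjusted p = 0.373), and leaving out 1 pool at a time kept it between 0.76 and 0.97. SUV39H1 lies on chromosome X, as do HDAC6, HDAC8, KDM5C and KDM6A. The labels do not give the sex of the embryos, and its part in the differences was not tested.

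SETDB1, which methylates the same lysine at retroelements together with TRIM28, measured 6.51, 6.19 and 6.36 in blastocysts and 8.96, 7.41 and 6.65 in degenerative embryos. The degenerative pools were all higher but spread over more than 2 log2 units. The difference was 1.32 (SE 0.63, limma adjusted p = 0.628), and 0.68 without degenerative pool A. A dimmer probe set also differed by 0.68, with overlap. EHMT1, which forms the main dimethylating complex with EHMT2, had means of 10.33 and 10.36, a difference of 0.03. The probe set of EHMT2 stayed at 2.13 in both groups, at the floor, where a difference could not be detected.

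Polycomb repressive complex 2 methylates lysine 27 of histone H3. EZH2, its main catalytic subunit, measured 10.62, 10.44 and 10.28 in blastocysts and 12.03, 11.08 and 10.89 in degenerative embryos. All degenerative pools were above all blastocyst pools. The difference was 0.89 or 1.85-fold (SE 0.34, limma adjusted p = 0.580), and 0.54 without degenerative pool A. EZH1, the alternative catalytic subunit, was dim, with means of 3.44 and 3.24.

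EED, the subunit that binds the methylated lysine, could not be assigned a single value. The annotation gave its name to 23 probe sets designed from 20 separate sequence clusters, whereas no other member had more than 5 probe sets. Of these, 22 varied, and 8 had a difference above 0 and 14 below, from -2.15 to 1.24 with a median of -0.02. Their mean levels ran from 2.12 to 11.71. The probe set of highest mean differed by 0.74 (SE 0.30, limma adjusted p = 0.597), while the 3 that SAM called as lower at 25% differed by -2.15, -0.92 and -0.30. Which of these sequences are EED was not tested. Without all EED probe sets, 21 of 32 genes were above 0, and the median difference was 0.25. Of the 48 probe sets then left, 8 were higher without overlap (16.7%, beside 6.48% of the array) and 2 lower (4.17%, beside 8.93%).

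**Figure D2:**
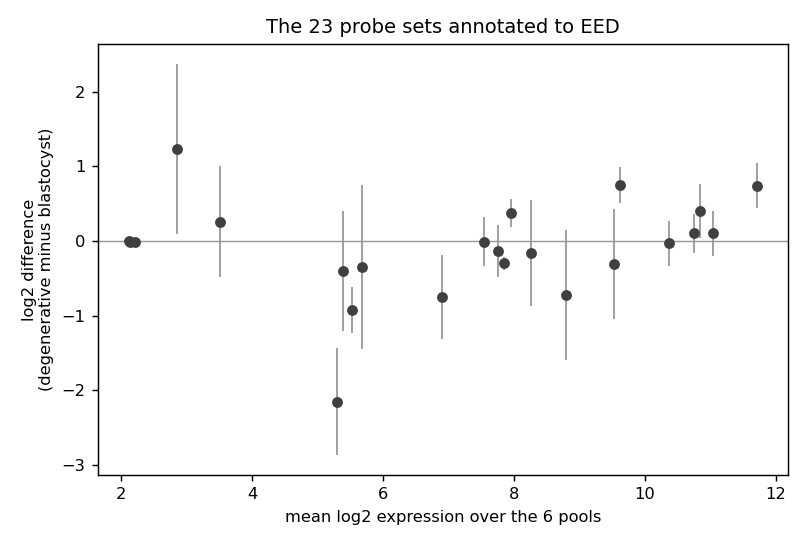
Difference between degenerative embryos and blastocysts (log2, vertical axis, with bars of 1 standard error) against the mean log2 expression over the 6 pools (horizontal axis) for the 23 probe sets annotated to EED. The points spread from -2.15 to 1.24 in difference and from 2.12 to 11.71 in level, so 1 value cannot stand for all of them. The probe set with 1 value on all arrays is drawn at 0 without a bar.

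SETD7, a monomethyltransferase of lysine 4 of histone H3 and of several other proteins, was the only other lysine methyltransferase of the list with a probe set. It measured 8.90, 8.22 and 8.93 in blastocysts and 8.47, 8.75 and 8.71 in degenerative embryos. The groups overlapped fully, and the difference of -0.04 (SE 0.23, limma adjusted p = 0.996) changed sign with single pools left out. Its 95% interval ran from -0.65 to 0.57.

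The arginine methyltransferases were measured through PRMT1 and PRMT5. PRMT5, which dimethylates arginines symmetrically, had values of 11.34, 11.38 and 11.00 in blastocysts and 12.53, 11.81 and 11.33 in degenerative embryos. Degenerative pool C lay inside the blastocyst range. The difference was 0.65 (SE 0.34, limma adjusted p = 0.649), and 0.33 without degenerative pool A. PRMT1, which makes most asymmetric dimethylarginine, had means of 9.63 and 10.07 with overlap.

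Of the lysine demethylases, 5 were measured and no probe set separated the groups. KDM1A, which removes methyl groups from lysine 4 of histone H3, measured 12.29, 12.26 and 12.05 in blastocysts and 13.22, 12.67 and 12.29 in degenerative embryos. Degenerative pool C lay just below blastocyst pool A, by less than 0.01. The difference was 0.53 (SE 0.26, limma adjusted p = 0.633), and 0.28 without degenerative pool A. KDM3A, a lysine 9 demethylase, and KDM5C, a lysine 4 demethylase, differed by 0.08 and 0.04. KDM2B, which recruits a variant Polycomb complex to CpG islands, differed by -0.25 at means of 4.10 and 3.85. KDM6A, a lysine 27 demethylase, differed by -0.25 at its brighter probe set. A dimmer one gave 5.26, 4.50 and 3.38 in blastocysts and 2.12, 3.37 and 3.43 in degenerative embryos, with degenerative pool A at the floor. That probe set differed by -1.40 (SE 0.64, limma adjusted p = 0.624), and its groups overlapped.

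All 7 deacetylases listed had a probe set, 4 with a difference above 0 and 3 below. HDAC3, the catalytic subunit of the NCOR corepressor complexes, measured 8.35, 8.71 and 8.95 in blastocysts and 10.76, 9.43 and 8.76 in degenerative embryos. Degenerative pool C lay inside the blastocyst range, and the difference of 0.98 (SE 0.57, limma adjusted p = 0.677) was 0.42 without degenerative pool A. HDAC8, which deacetylates the cohesin subunit SMC3, had means of 10.60 ± 0.11 and 11.38 ± 0.90 (SD, n = 3 pools each). Its groups did not overlap, and its difference of 0.78 was 0.26 without degenerative pool A. HDAC6, a mainly cytoplasmic tubulin deacetylase, differed by 0.84, and by 0.13 without that pool.

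HDAC1, a catalytic subunit of the SIN3 and NuRD complexes, was bright, with means of 13.17 and 13.40 and a difference of 0.24. HDAC2, its close paralog in the same complexes, had no probe set with a mean of 5 in either group. SIRT1, an NAD-dependent nuclear deacetylase, differed by -0.14 at its brighter probe set. Its dimmer probe set gave 9.32, 7.12 and 7.33 in blastocysts and 8.28, 5.79 and 6.74 in degenerative embryos, where the A pool was the highest of each group. Its difference was -0.99 (SE 0.93, limma adjusted p = 0.737), and each degenerative pool was below the blastocyst pool of the same letter (differences of -1.05, -1.33 and -0.60). SIRT2, an NAD-dependent deacetylase of tubulin and histone H4, differed by -0.04.

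Among acetyltransferases, 5 genes were measured. KAT2B, a catalytic subunit of SAGA-type complexes, measured 10.76, 10.53 and 10.61 in blastocysts and 11.60, 10.86 and 10.86 in degenerative embryos. The groups did not overlap, though degenerative pools B and C were close to blastocyst pool A. The difference was 0.47 (SE 0.24, limma adjusted p = 0.635), and 0.23 without degenerative pool A. A dimmer probe set, with means of 4.22 and 5.30, differed by 1.08 and did not overlap either. Another differed by -0.28 at means of 2.60 and 2.31, near the floor. CREBBP, a broad coactivator acetyltransferase, differed by 0.32, and KAT5, the catalytic subunit of the TIP60 complex, by 0.27. KAT7, which acetylates histone H3 at replication origins and genes, differed by 0.05, and HAT1, which acetylates newly made histone H4, by -0.13.

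CBX3, the HP1 protein that binds methylated lysine 9 of histone H3, measured 12.81, 12.74 and 12.55 in blastocysts and 12.48, 12.14 and 12.37 in degenerative embryos. Each degenerative pool was below each blastocyst pool, though degenerative pool A lay just below blastocyst pool C. The difference was small, -0.36 or 1.29-fold lower (SE 0.12, limma adjusted p = 0.553). Its unadjusted limma p of 0.0334 became 0.0568 when the pools were paired by letter, and 0.0908 with each array centred on its median. TRIM28, the corepressor that brings SETDB1 and HP1 proteins to zinc finger factors, had means of 10.76 ± 0.19 and 11.68 ± 0.96 (SD, n = 3 pools each). Its groups overlapped, and the difference of 0.92 was 0.38 without degenerative pool A.

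**Figure D3:**
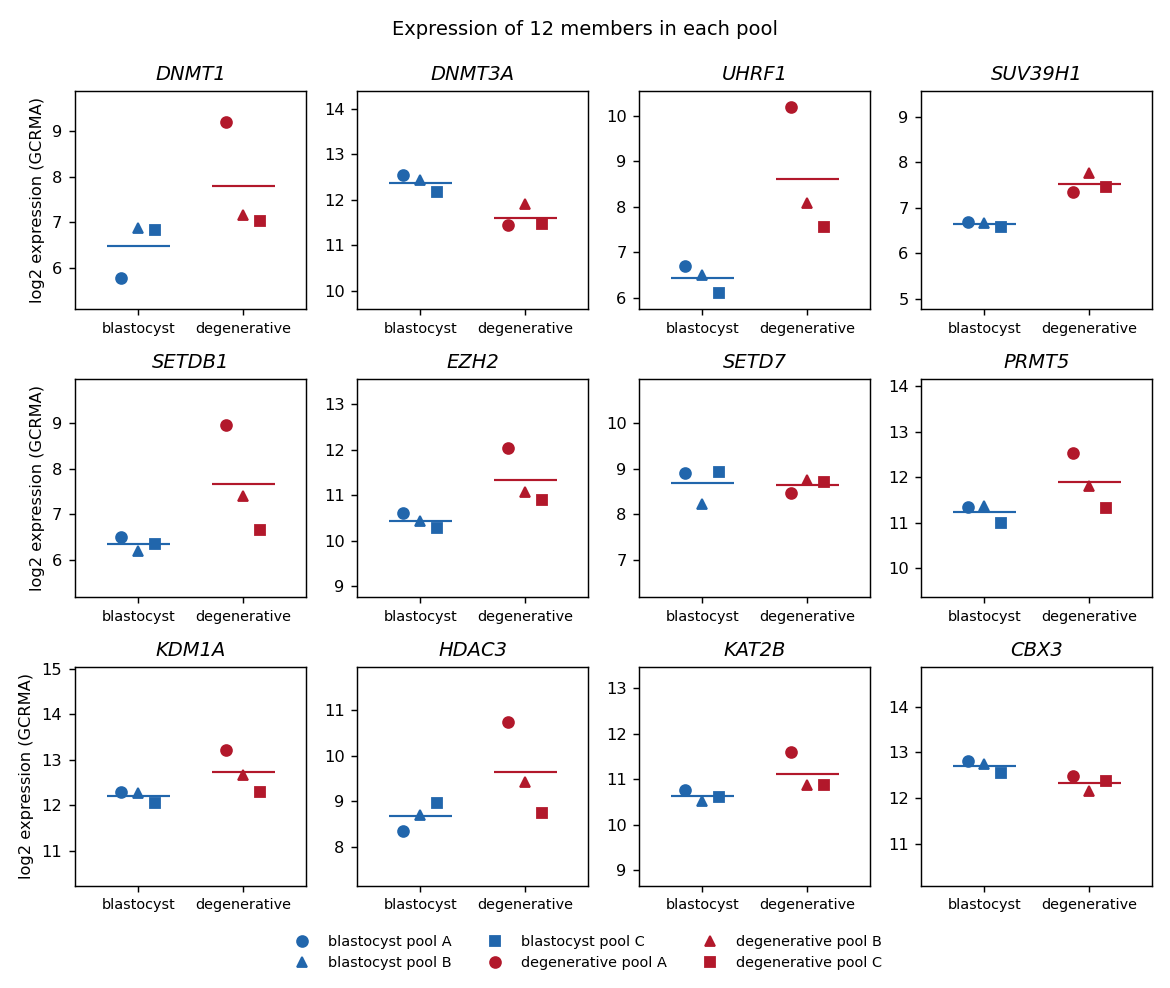
Log2 expression of 12 members in the 3 blastocyst pools (blue) and the 3 degenerative pools (red), with symbols for pools A, B and C and a horizontal line at each group mean. Each panel spans the same number of log2 units on its own origin, so that spreads can be compared between genes but levels cannot. SUV39H1 separates with tight groups. DNMT3A also separates, by a gap narrower than the range within either group. CBX3 separates narrowly, with degenerative pool A just below blastocyst pool C. For DNMT1, UHRF1, SETDB1 and HDAC3 degenerative pool A lies far above the other 5 pools.

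Probe sets of the same gene did not always run the same way. Apart from EED, 12 members had several varying probe sets, and 5 of them (EHMT1, KDM3A, HDAC2, SIRT2 and KAT2B) had probe sets on both sides of 0. In each of these at least 1 of the probe sets involved was near the floor or had a difference smaller than its standard error.

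Most of the shift of the members was seen in 1 pool. Relative to the blastocyst mean, the median deviation over the 33 members was 0.72 in degenerative pool A, 0.21 in pool B and 0.03 in pool C. The same medians over all genes tested were 0.00, 0.01 and 0.00. Degenerative pool A was the highest of the 6 pools for 19 members (57.6%), beside 32.9% of all genes. Without it the median difference of the members was 0.08 and that of all genes 0.01, with 20 members above 0 and 13 below. DNMT3B, KDM3A, HDAC1 and KAT5 then passed from above to below 0, and EZH1 and SETD7 from below to above. Comparing pools of the same letter, 11 members (33.3%) were higher in the degenerative pool for all 3 letters, beside 19.2% of all genes, and 5 (15.2%) were lower for all 3, beside 19.9%.

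**Figure D4:**
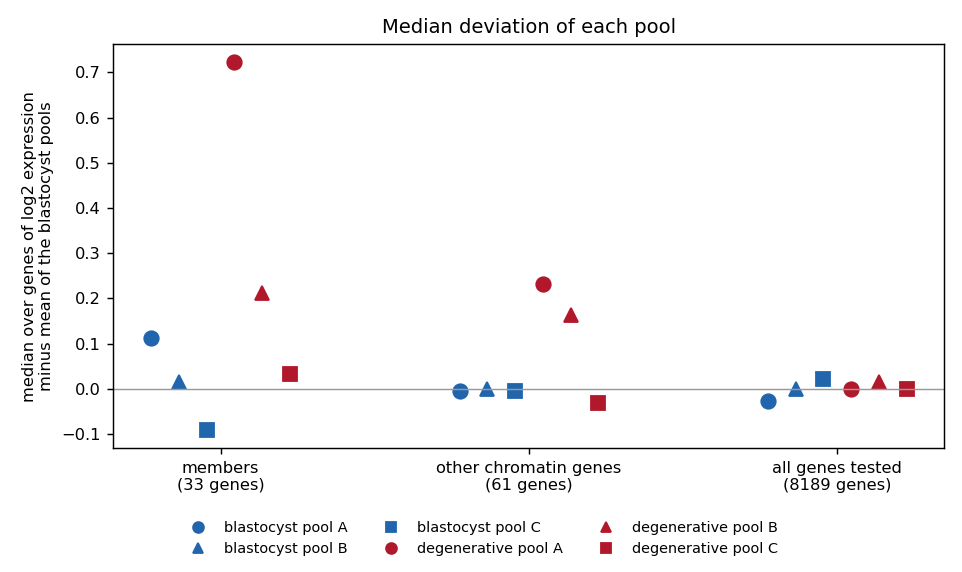
Median over genes of log2 expression minus the blastocyst mean of each gene, for each pool, over the 33 members, 61 other chromatin genes and 8189 genes tested. Degenerative pool A lies at 0.72 for the members, above all other points, and at 0.23 for the other chromatin genes. All 6 pools lie between -0.03 and 0.02 over all genes.

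**Figure D5:**
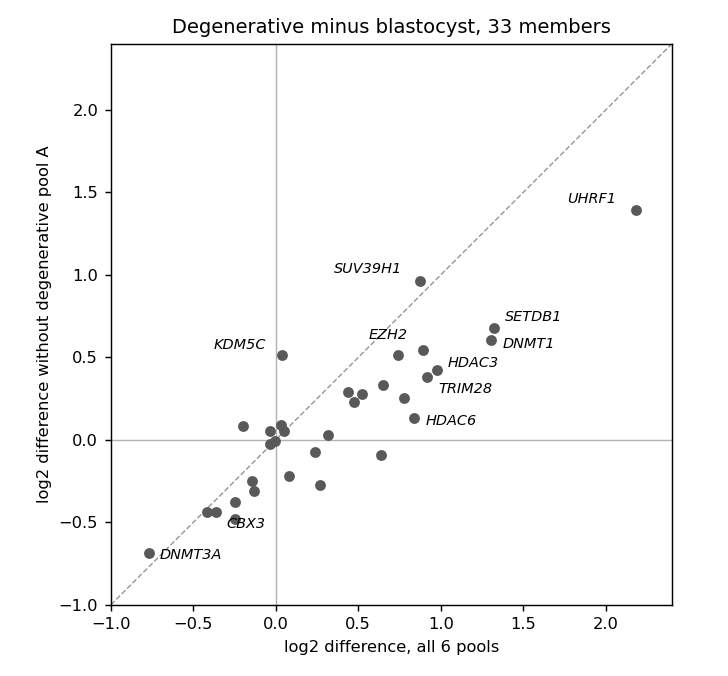
Difference between degenerative embryos and blastocysts for the 33 members without degenerative pool A (vertical axis, log2) against the difference over all 6 pools (horizontal axis, log2), with the line of equality dashed. UHRF1 lies furthest below the line, from 2.18 to 1.39, and still furthest from 0. DNMT3B (0.64 to -0.09), HDAC6, DNMT1, SETDB1, HDAC3 and TRIM28 also lie well below the line, and SUV39H1 and DNMT3A lie close to it.

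Other genes of the same machinery had a median difference close to that of all genes, but they too tended to be highest in degenerative pool A. From a list of 115 further chromatin genes (Polycomb complex 1, partners of Polycomb complex 2, other methyltransferases, demethylases, deacetylases and acetyltransferases, corepressors and histone chaperones), 61 were measured, with 33 above 0, 28 below and a median of 0.07. Their median deviation from the blastocyst mean was 0.23 in degenerative pool A, 0.16 in pool B and -0.03 in pool C. Pool A was the highest of the 6 pools for 28 of them (45.9%), beside 32.9% of all genes. By group of genes the median difference ran from -0.06 (Polycomb complex 1, 9 genes) to 0.47 (histone chaperones, 6 genes). None passed SAM or limma at 15%. At an unadjusted limma p under 0.05, 6 were higher, beside 4.68% of all genes. These were HDAC5, another deacetylase (1.39), JMJD6, a lysyl hydroxylase (1.17), CHD4, the remodeler of the NuRD complex (0.94), ASF1B and CHAF1A, chaperones that hand histones to replicating DNA (0.89 and 0.78), and BRPF1, a scaffold of acetyltransferase complexes (0.71). Another 3 were lower, beside 5.65% of all genes. TDG, the glycosylase that removes oxidized 5-methylcytosine, differed by -0.80 (SE 0.18, limma adjusted p = 0.479), NCOA1, a coactivator of nuclear receptors, by -0.79, and AEBP2, a partner of Polycomb complex 2, by -0.43. The groups did not overlap for any of the genes just named. Of the 61 genes, 8 were higher without overlap and 4 lower, beside 8.99% and 9.16% of all genes. SAM at 25% called TDG and NCOA1, where 4.30% of the array was called as lower.

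Markers of cell types and states varied between the pools beside the members, and none passed SAM or limma at 15%. SAM at 25% called TFAP2A of the trophectoderm (-2.90) and PCNA of cycling cells (-0.21), both lower, beside 4.30% of the array. Transcripts of cycling cells averaged 11.3 to 11.5 per blastocyst pool and 11.3 to 12.5 per degenerative pool. Of 13 genes, 12 were higher, beside 54.5% of all genes, and degenerative pool A was the highest pool for 12, beside 32.9%. Without that pool their median difference went from 0.39 to -0.01. The 1 lower gene was PCNA, whose groups did not overlap. Maternal oocyte transcripts averaged 3.11 to 3.41 and 3.85 to 4.85, with 7 of 7 higher, all but 1 of them under a mean of 5. Trophectoderm markers averaged 11.1 to 11.7 and 9.61 to 10.8, with 1 of 6 higher (TEAD4, 0.02), beside 54.5% of all genes. Of the 5 lower, TFAP2A, PAG2 (-2.41) and KRT19 (-1.18, with overlap) moved most. KRT8 (-0.04) and KRT18 (-0.06) hardly moved. The 2 inner cell mass and epiblast markers measured, POU5F1 (0.48) and SOX2 (1.03), averaged 9.98 to 10.2 and 10.3 to 11.4. Both were higher, but the groups overlapped for SOX2. Hypoblast markers averaged 9.62 to 10.3 and 10.1 to 10.3, cumulus and granulosa cell markers 5.45 to 6.78 and 5.34 to 7.05, and sperm markers 3.33 to 4.35 and 3.36 to 3.90. The part of these cell types in the differences of the members was not tested.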

How the data were processed

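RNA of 6 pools of bovine embryos was measured on 1 array each. The deposited log2 expression values per probe set were made by the authors with GCRMA 2.14.1. Following the methods, the test left out 20 controls and 5079 probe sets that did not vary, and no other column was left unused. Probe sets took their symbol from the platform annotation, brought up to date with a RefSeq gene list (ARS-UCD2.0). For 11002 of the tested probe sets this gave 1 symbol, for 64 several and for 7871 none, and only the first were named. SAM was rewritten from its published description (all 20 relabelings, mean number of false calls, share of unchanged probe sets 0.781), and limma 3.58.1 in R 4.3.3 gave differences, standard errors and Benjamini-Hochberg adjusted p-values over all tested probe sets. The scripts were tested on simulated data. Since pools held different embryos, p-values refer to the spread among pools. An exact two-sided permutation test of 3 pools against 3 cannot go below 0.1, so none was used for single genes.

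The members and lists were chosen with earlier results of these data known. Values in every pool were given for members called by SAM at 15% or 25%, or with an unadjusted limma p under 0.05. They were also given where the probe set of highest mean differed by at least 1, and otherwise for the member of smallest p in a class. EED was an exception, with no pool values given, because its probe sets could not be assigned to 1 gene. Dimmer probe sets of KDM6A and SIRT1 were described after their values were seen. The letters of the labels were taken as pairs in 1 alternative, because deviations from the group means of same-letter pools correlated at 0.373 (A), 0.18 (B) and 0.275 (C) over the tested probe sets. Other alternatives were centring, a filter on dim probe sets, probe sets with a single value left in, an intensity trend, the median number of false calls, the mean over probe sets and leaving out each pool. Leaving out EED and leaving out both A pools were added after seeing the data. Arrays have no read depth, and their number limits the precision.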

Additional observations from a re-analysis of the deposited data

How the results depend on the processing

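No member had a limma adjusted p of at most 0.15 under any alternative, and SAM at 15% called 0 except with the median number of false calls, where it called 5 member probe sets (SUV39H1, DNMT3A, CBX3 and 2 of EED) among 807 of the array. The 6 calls of SAM at 25% became 3 with each array centred on its median, 2 with single-value probe sets left in, 3 with the replicate block, 3 without EED, 0 without both A pools and 0 to 9 with 1 pool left out. The share of the array called at 25% also varied, from 4.66% to 2.67% after centring, 1.65% with single-value probe sets left in, 3.47% with the replicate block, 0% without both A pools and 0% to 9.98% with 1 pool left out. The 9 member probe sets with an unadjusted limma p under 0.05 (12.9%, beside 8.61% of the array) became 5 without EED (10.4% of those left) and 3 to 12 with 1 pool left out (4.35% to 17.1%, beside 5.73% to 11.9% of the array). With the replicate block 9 were counted again, but CBX3 and 1 probe set of EED were replaced by dimmer probe sets of SIRT1 and PRMT1. The 14 without overlap (20.0%, beside 15.4% of the array) became 28 without both A pools (40.6%, beside 41.1%) and 16 to 24 with 1 pool left out (23.2% to 34.3%, beside 21.0% to 30.7%), since fewer pools separate more easily. Over the whole array, SAM at 15% called 67 probe sets, 12 after centring, 271 after the filter on dim probe sets, 11 with single-value probe sets left in and 0 with the replicate block, without both A pools or with any 1 pool left out. Limma called 4, and between 0 and 33 under the alternatives, with 33 without degenerative pool A. The median difference of the members stayed between 0.08 and 0.50 with 1 pool left out. The intensity trend and the replicate block return the main differences by construction, so they cannot change a direction. The 12 members given per pool were also picked largely by their values in these data. With those settings included, 116 of 120 values of these members kept their direction. The other 4 were of SETD7, at 0.16 without both A pools and between -0.27 and 0.086 with 1 pool left out. The cause of these shifts was not tested. For dim probe sets the floor of the scale, and for all the 3 pools per group, limit what could be detected.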
